A study of Mus musculus with 8 samples.

Results

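CD44 is a cell surface receptor for hyaluronan, a long sugar polymer of the extracellular matrix, and the genes described here are Cd44 and 6 genes that make, cut or cross-link its ligand. The 7 members are the receptor gene Cd44, the hyaluronan synthase genes Has1, Has2 and Has3, the hyaluronidase genes Hyal1 and Hyal2, and Tnfaip6, whose product TSG-6 moves protein heavy chains onto hyaluronan. They are 7 of the 21848 genes in each matrix, they were found by their symbols, and Cd44 was picked for its higher level in fibroblasts of ancrod-treated mice. The values that chose Cd44 are therefore the Cd44 values of fibroblasts in both treatments, and in those cells all members are given as a description, from which no test result is read.

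The cells came from the right sensorimotor cortex of 8 adult mice, 6 days after photothrombotic stroke (PT), in which light and the dye rose bengal clot the vessels of a small cortical area. All 8 mice had this injury and a subcutaneous osmotic minipump from 2 days before PT. In 4 mice the pump delivered saline, and in 4 it delivered 2.4 U per day of ancrod, a snake venom enzyme that removes fibrinogen from the blood. There was no uninjured group, so the data compare ancrod with saline after injury and not injured with healthy tissue. The sample labels and the series text name wild-type mice of a C57BL/6J-type strain and the labels give females, whereas the methods describe animals of both sexes on a C57BL/6N background. The sources leave strain and sex unresolved. The lesion and a rim of spared tissue were dissociated after the meninges had been removed, with no sorting for a cell type, and each mouse gave 1 library. The labels place 3 mice of each treatment in batch 1 and 1 mouse of each treatment in batch 2, for injury and sequencing together.

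Hyaluronan is spun out at the plasma membrane by the synthases, of which Has2 is the main form in many mesenchymal cells. HYAL2 cuts the polymer at the cell surface and HYAL1 degrades the fragments in lysosomes. TSG-6 is induced in inflammation, and the heavy chains it transfers help to hold a hyaluronan matrix together to which CD44-bearing cells adhere. CD44 itself is abundant on leukocytes, where it serves rolling and adhesion, and appears on activated fibroblasts and astrocytes.

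In GENCODE M39 on GRCm39, the build of the deposited matrices, Cd44 lies on the minus strand of chromosome 2 from 102641486 to 102732010, and Tnfaip6 on the plus strand of the same chromosome from 51927998 to 51946698. The synthase genes lie apart from one another, Has1 on chromosome 17 from 18063585 to 18075467, Has2 on chromosome 15 from 56528342 to 56557999 and Has3 on chromosome 8 from 107596874 to 107611198. Hyal2 (chromosome 9, 107445086 to 107450171) and Hyal1 (107454126 to 107458909) are neighbours on the same strand. Hyal1 overlaps Hyal3 and Naa80 on its own strand, so that reads in the shared stretch could not be assigned to 1 gene and its counts are uncertain. Has3 overlaps Derpc and Chtf8 on the opposite strand.

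Droplets with at least 2000 UMIs and less than 20% mitochondrial UMIs were taken as cells, 46216 in all, and 44072 remained after the removal of 2144 likely doublets. The libraries held between 97861434 and 122758649 UMIs in saline mice and between 126682918 and 142139441 in ancrod mice, with every ancrod library deeper than every saline library. Pairs of libraries shared between 3 and 15 cell barcodes. Clusters were made without the members and named from markers, with the ending "-like" because the authors' annotation was not used here. Of all cells, 5856 stayed unnamed, and 14 named classes had at least 10 cells in every mouse. The largest unnamed cluster, 1705 cells with low UMIs, scored highest as microglia, and another of 600 cells as astrocytes. The unnamed also include 1290 cells that scored highest as endothelial cells but had a neuron marker (Stmn2) among their leading genes. Their other leading genes included Gkn3, Bmx, Sema3g, Vegfc and Alpl. Another 525 scored highest as endothelial cells while pericyte markers led. The microglia-like, astrocyte-like, endothelial cell-like and pericyte-like values leave these cells out. Levels are given as CPM, the UMIs of a gene per 1000000 UMIs of the class in a mouse, and n is the number of mice.

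The plot of Cd44 by class shows a wide range of levels, with blood-derived myeloid cells at the top and endothelial cells at the bottom.

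**Figure D1:**
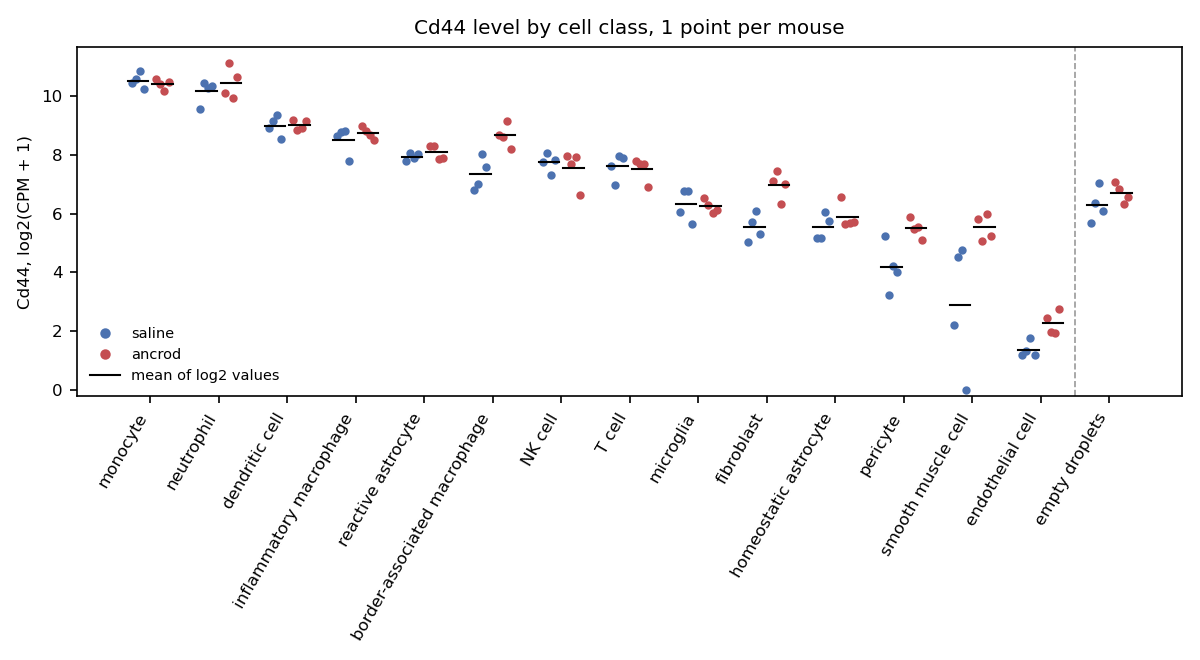
Cd44 as log2(CPM + 1) in 14 cell classes and in empty droplets (right of the dashed line), 1 point per mouse, with a black bar at the mean of each treatment. Monocyte-like and neutrophil-like cells lay highest and endothelial cell-like cells lowest, and the points of the 2 treatments separated in border-associated macrophage-like, fibroblast-like, smooth muscle cell-like and endothelial cell-like cells.

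Cd44 was highest in monocyte-like cells at 1409 ± 211 CPM (SD, n = 8) and in neutrophil-like cells at 1308 ± 437 CPM (SD, n = 8). Dendritic cell-like cells held 517 ± 88.6 CPM (SD, n = 8) and inflammatory macrophage-like cells 401 ± 85.5 CPM (SD, n = 8). Reactive astrocyte-like cells, at 258 ± 37.5 CPM (SD, n = 8), reached the level of border-associated macrophage-like cells at 291 ± 154 CPM (SD, n = 8). Lymphocytes followed, with 207 ± 54 CPM in NK cell-like and 194 ± 47.6 CPM in T cell-like cells (SD, n = 8 each).

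Microglia-like cells, the resident macrophages of the brain, held 79.1 ± 21.4 CPM (SD, n = 8), and fibroblast-like cells 88 ± 51.6 CPM (SD, n = 8) over both treatments. Homeostatic astrocyte-like cells lay at 53.7 ± 18.5 CPM (SD, n = 8). This class is mixed, since 1105 of its cells, 440 of them from ancrod mouse 2, formed a cluster with the reactive marker Gfap among its leading genes. Pericyte-like cells held 32.2 ± 17.1 CPM, smooth muscle cell-like cells 29.9 ± 22.1 CPM and endothelial cell-like cells 2.83 ± 1.61 CPM (SD, n = 8 each). The leukocyte classes other than microglia-like cells, and reactive astrocyte-like cells, thus lay above microglia-like, fibroblast-like and homeostatic astrocyte-like cells, and the cells of the vessel wall lay lowest.

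Classes next to each other in the order of their mean log2 levels were compared within mice by a two-sided exact sign-flip permutation test, adjusted over the 13 neighbouring pairs. Of these, 5 pairs differed: neutrophil-like above dendritic cell-like, dendritic cell-like above inflammatory macrophage-like and T cell-like above microglia-like cells in 8 of 8 mice (adjusted exact p = 0.0339 each, the smallest p being 0.00781 before adjustment), and inflammatory macrophage-like above reactive astrocyte-like and homeostatic astrocyte-like above pericyte-like cells in 7 of 8 mice (adjusted exact p = 0.0406 each). Monocyte-like and neutrophil-like cells did not differ beyond their spread, with a mean difference of 0.16 on the log2 scale and 5 of 8 mice in this order. None of the 5 pairs includes fibroblast-like cells, whose place in the order is a description because Cd44 was picked on their values. Over both treatments microglia-like and fibroblast-like cells were close, but the order turned with the treatment, at 82.7 against 47.3 CPM in saline mice and 75.5 against 129 CPM in ancrod mice. The same held for reactive astrocyte-like against border-associated macrophage-like cells, at 242 against 171 CPM in saline mice and 273 against 411 CPM in ancrod mice. Without any 1 mouse, none of the neighbouring pairs passed, because with 7 mice the exact test cannot pass unless at least 5 pairs reach its smallest p. None passed either when cells needed at least 5000 UMIs, and fewer passed with doublets kept.

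The genes whose class means followed Cd44 most closely, as log2(CPM + 1) over the 14 classes among 12742 genes with at least 10 CPM in a class, were Plxnc1 (Pearson r = 0.92), a semaphorin receptor, Apobr (r = 0.91), a lipoprotein receptor of macrophages, and Xylt1 (r = 0.89), which starts the sugar chains of proteoglycans. Pstpip1 and Unc119 followed, both with r = 0.86. These are correlations over 14 classes of the same 8 libraries, given as a description.

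Cells with a Cd44 UMI made up 99.5% of monocyte-like, 93.7% of reactive astrocyte-like, 51.8% of fibroblast-like and 2.34% of endothelial cell-like cells. The classes differed in depth, with a median of 42202 UMIs per fibroblast-like cell and 10379 per endothelial cell-like cell. After each cell was thinned to 2000 UMIs, the shares were 86.1%, 35.1%, 10.6% and 0.277%, in the same order. The endothelial share, in the class with the lowest Cd44 level, is given for comparison and is no measure of background.

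Free RNA was measured in droplets with at most 100 UMIs, where Cd44 made up 93.3 ± 29.9 CPM (SD, n = 8 libraries). Levels were above the empty droplets of the same library in all 8 mice in 8 of the 14 classes for Cd44, namely all the leukocyte classes except microglia-like cells, and reactive astrocyte-like cells. In fibroblast-like cells Cd44 was above the empty droplets in 3 of 8 mice. Its level was below them in every mouse in homeostatic astrocyte-like, pericyte-like, smooth muscle cell-like and endothelial cell-like cells. Endothelial cell-like cells held 0.03 times the Cd44 level of the empty droplets, and pericyte-like cells 0.345 times.

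The hyaluronan genes had patterns of their own, shown in the plot of their levels by class. Most UMIs of Has1, Has2 and Tnfaip6 were in fibroblast-like cells, Hyal2 was highest in endothelial cell-like cells, Hyal1 was spread over many classes, and Has3 was low in all of them.

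**Figure D2:**
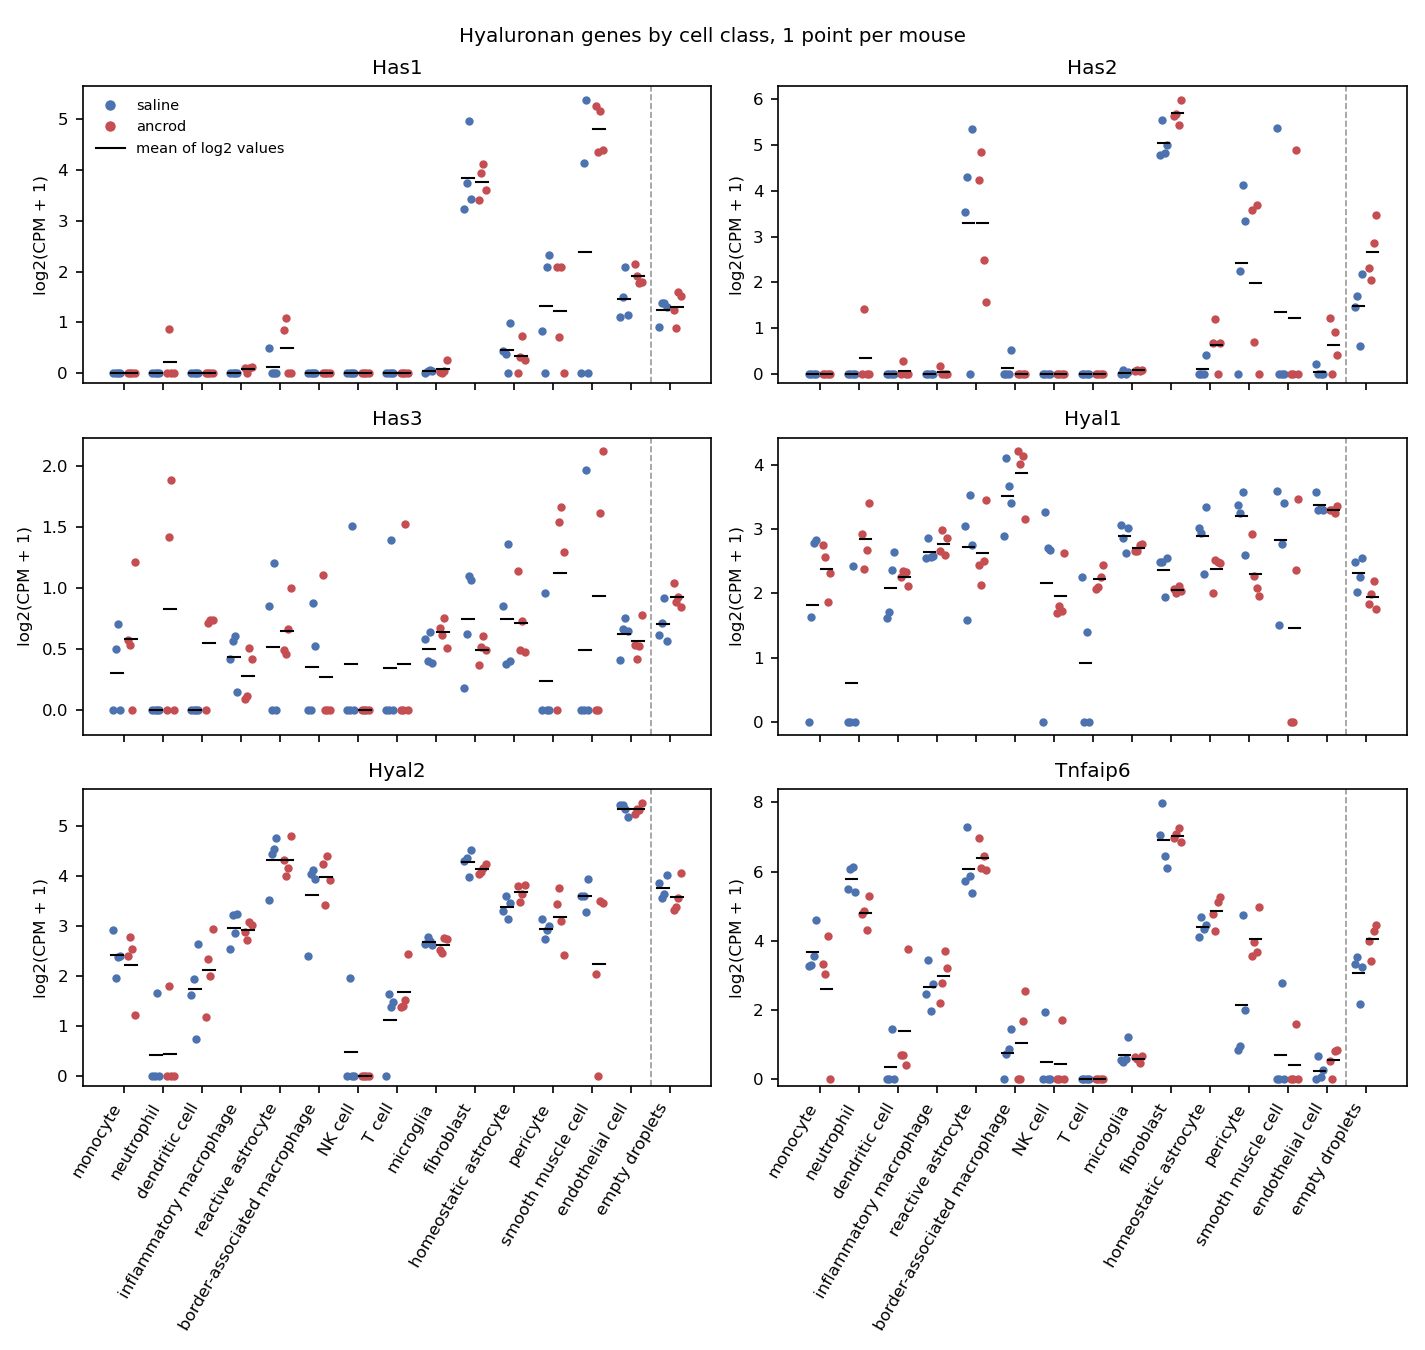
Has1, Has2, Has3, Hyal1, Hyal2 and Tnfaip6 as log2(CPM + 1) by cell class and in empty droplets, 1 point per mouse, with a black bar at the mean of each treatment. The vertical axes differ between genes. Among the 14 classes Has2 and Tnfaip6 were highest in fibroblast-like cells, Has1 was found in fibroblast-like and smooth muscle cell-like cells, and Hyal2 was highest in endothelial cell-like cells.

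Of the 5425 Has2 UMIs in all cells, 88.3% were in fibroblast-like cells, which were 5.21% of the cells and held 12.9% of all UMIs. This share lay between 66.7% and 97.7% in every mouse. Fibroblast-like cells also held 75.7% of the 1702 Has1 UMIs and 74.4% of the 18481 Tnfaip6 UMIs. By mouse these shares were 36.1% to 89.3% for Has1 and 34.9% to 85.6% for Tnfaip6, both lowest in saline mouse 3, in which endothelial cell-like cells held 38.8% of the Has1 UMIs. Cd44 was distributed differently, with 26.7% of its 134279 UMIs in inflammatory macrophage-like, 22.8% in monocyte-like and 18.2% in microglia-like cells. By mouse these shares were 21.5% to 33.6%, 8.11% to 37.4% and 11.2% to 31.2%, so that their order differed between mice.

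Has2 lay at 41.9 ± 12.7 CPM (SD, n = 8) in fibroblast-like cells, and above the empty droplets there in 8 of 8 mice. In reactive astrocyte-like cells it reached 15.2 ± 13.8 CPM (SD, n = 8), with 0 in saline mouse 3 and 40 CPM in saline mouse 4. The OPC-like cells, precursors of oligodendrocytes, held 110 Has2 UMIs in 150 cells, at a mean of 43.1 ± 45.8 CPM (SD, n = 8). Has2 was above the empty droplets there in 7 of 8 mice. It was 148 CPM in saline mouse 3 with 4 cells, 0 in ancrod mouse 2 with 7 cells and between 17.6 and 59.8 CPM in the other mice. This class was not tested, having fewer than 10 cells in some mice. No Has2 UMI was found among 1220 monocyte-like, 399 T cell-like or 312 NK cell-like cells, which allows shares of cells with a UMI of up to 0.246%, 0.752% and 0.962%.

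Has1 was found at 14 ± 7.08 CPM (SD, n = 8) in fibroblast-like cells and at 21.2 ± 15.8 CPM (SD, n = 8) in smooth muscle cell-like cells. The latter rested on 64 UMIs in 216 cells, with none in saline mice 1 and 4. The mean level of Has3 was at or below 2.13 CPM in every class, with 378 UMIs in all cells, and was above the empty droplets of all 8 mice in none of the 14 classes. Nothing was read from its differences between classes.

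Hyal2 was highest in endothelial cell-like cells at 39.7 ± 2.65 CPM (SD, n = 8), and varied little there, between 35.4 and 43.2 CPM over all mice. These cells held 36.9% of its 11272 UMIs, between 23.9% and 47% by mouse, and in ancrod mouse 3 fibroblast-like cells held more, at 30.8%. Reactive astrocyte-like cells held 19.7 ± 5.57 CPM, fibroblast-like cells 17.7 ± 2.34 CPM and border-associated macrophage-like cells 14 ± 4.97 CPM (SD, n = 8 each). Hyal2 exceeded the empty droplets (12 ± 2.55 CPM, SD, n = 8) in all 8 mice in endothelial cell-like and fibroblast-like cells.

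Hyal1 reached 12.6 ± 4.29 CPM (SD, n = 8) in border-associated macrophage-like cells and 9.12 ± 0.763 CPM (SD, n = 8) in endothelial cell-like cells. In most other classes it lay between 3 and 7 CPM, near the 3.47 ± 0.893 CPM (SD, n = 8) of the empty droplets, which it exceeded in all 8 mice in these 2 classes and in microglia-like, inflammatory macrophage-like and homeostatic astrocyte-like cells. Among the 14 classes, Hyal1 was thus highest in border-associated macrophage-like cells and Hyal2 in endothelial cell-like cells.

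Tnfaip6 lay at 133 ± 55.2 CPM (SD, n = 8) in fibroblast-like cells and at 81.7 ± 39.6 CPM (SD, n = 8) in reactive astrocyte-like cells, and above the empty droplets in all mice in both. It was also above them in neutrophil-like cells at 41.6 ± 18.2 CPM and homeostatic astrocyte-like cells at 24.7 ± 7.67 CPM (SD, n = 8 each). In the 150 OPC-like cells, which were not tested, Tnfaip6 lay at 121 ± 82.8 CPM (SD, n = 8) on 477 UMIs, between 0 in ancrod mouse 2 and 223 CPM in saline mouse 4, and above the empty droplets in 7 of 8 mice. In microglia-like cells it was at 0.593 ± 0.302 CPM (SD, n = 8), below the empty droplets in every mouse.

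Taking all members and classes, 21 of 98 pairs of a member and a class lay above the empty droplets in all 8 mice.

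The fibroblast-like cells numbered 2296, between 34 and 241 per saline mouse and between 113 and 640 per ancrod mouse. These are cells recovered after dissociation and do not measure how many fibroblasts the lesions held. The summed level of 7 fibroblast markers (Col1a1, Col1a2, Col3a1, Dcn, Lum, Dpt and Col6a3) was between 25946 and 34978 CPM in saline and between 21708 and 27394 CPM in ancrod mice. Of these markers 1 of 7 was higher in the ancrod mean and Col3a1 was lower in every ancrod mouse than in every saline mouse, and Dpt was near 0, at most 1.54 CPM in any mouse. Cd44 in these cells was 31.7, 51.3, 67.4 and 38.7 CPM in saline mice 1 to 4, and 135, 175, 78.6 and 126 CPM in ancrod mice 1 to 4. Every ancrod mouse was above every saline mouse, the nearest being ancrod mouse 3 and saline mouse 3, the latter with only 34 fibroblast-like cells. The means were 47.3 ± 15.7 CPM (SD, n = 4) in saline and 129 ± 39.5 CPM (SD, n = 4) in ancrod mice, and the log2 fold change was 1.49 (standard error 0.28).

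**Figure D3:**
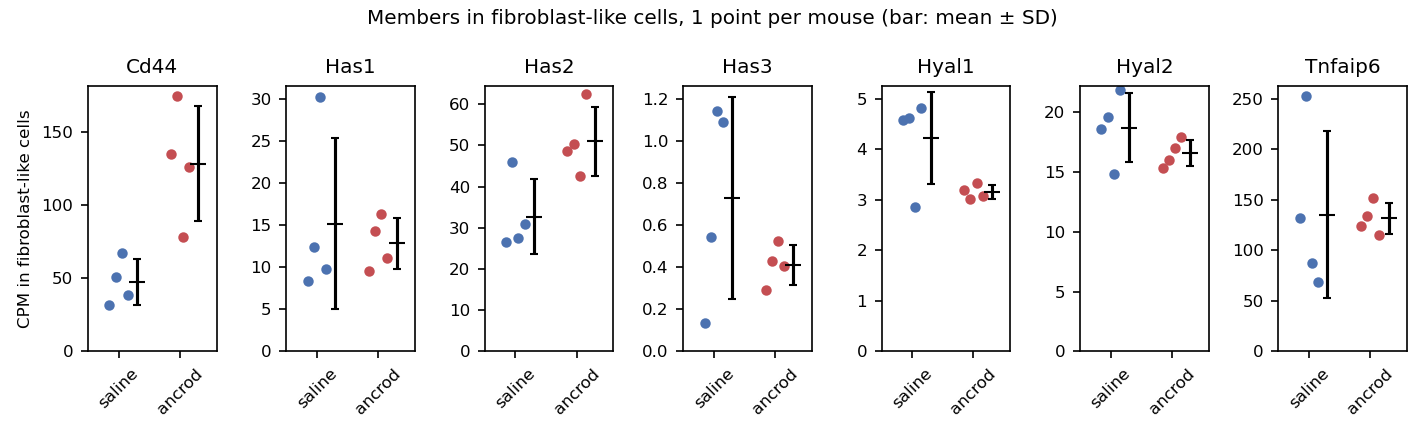
The 7 members in fibroblast-like cells, in CPM on axes that start at 0, 1 point per mouse, with the mean ± SD of each treatment (n = 4) beside the points. Cd44 was the member whose treatments did not overlap, and Has2 overlapped by 1 saline mouse.

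Has2 was 26.6, 46, 27.4 and 30.9 CPM in saline mice 1 to 4 and 48.8, 50.3, 42.6 and 62.5 CPM in ancrod mice 1 to 4. The treatments overlapped by saline mouse 2 and ancrod mouse 3, and the log2 fold change was 0.63 (standard error 0.20). Tnfaip6 ranged from 68.6 to 253 CPM in saline and from 116 to 152 CPM in ancrod mice, with means of 135 ± 82.8 and 132 ± 15.7 CPM (SD, n = 4 each). Has1 had means of 15.2 ± 10.2 and 12.8 ± 3.03 CPM (SD, n = 4 each), in saline and ancrod mice. The degrading enzymes lay slightly lower in ancrod mice, Hyal1 at 4.22 ± 0.916 against 3.16 ± 0.141 CPM and Hyal2 at 18.7 ± 2.91 against 16.6 ± 1.12 CPM (SD, n = 4 each), both with overlap. Has3 was too sparse to be fitted.

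In the fibroblast-like fit, 0 of the 6 members tested passed an adjusted p of 0.05 in edgeR, beside 0.0078% of all genes, and 1 (Cd44) passed in DESeq2, beside 1.23% of all genes. Every ancrod mouse was above every saline mouse in 3.34% of the genes tested there and below in 3.88%, and among the members in 1 (Cd44) and 0 of 6. Cd44 was chosen on these values, so the counts support nothing and are given beside those of all genes only.

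Thinning to 2000 UMIs per cell left Cd44 UMIs in 1.71% to 9.04% of fibroblast-like cells in saline mice and in 10.3% to 16.8% in ancrod mice. Before thinning the shares were 30.3% to 52.9% and 52.2% to 75.2%. Empty droplets held Cd44 at 81.9 ± 34.6 CPM in saline and 105 ± 23.3 CPM in ancrod mice (SD, n = 4 each). The fibroblast-like level was below the empty droplets of the same library in every saline mouse. Markers of all leukocytes (Ptprc, Tyrobp, Fcer1g, Cd52, Lyz2 and Coro1a) summed to between 55.4 and 172 CPM in the fibroblast-like cells of saline mice and between 69.6 and 175 CPM in those of ancrod mice, with 4 of the 6 higher in the ancrod mean, 0 of 6 without overlap and none at 0. Within batch 1 the Cd44 means were 50.1 and 130 CPM (n = 3 each), and in batch 2 the single mice gave 38.7 and 126 CPM, in the order saline and ancrod.

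The 5 clusters of fibroblast-like cells, formed without Cd44 and the hyaluronan genes, differed in the members they held. The plot by cluster shows 4 of them, since the fifth (99 shallow cells) held 22 Cd44 UMIs in all.

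**Figure D4:**
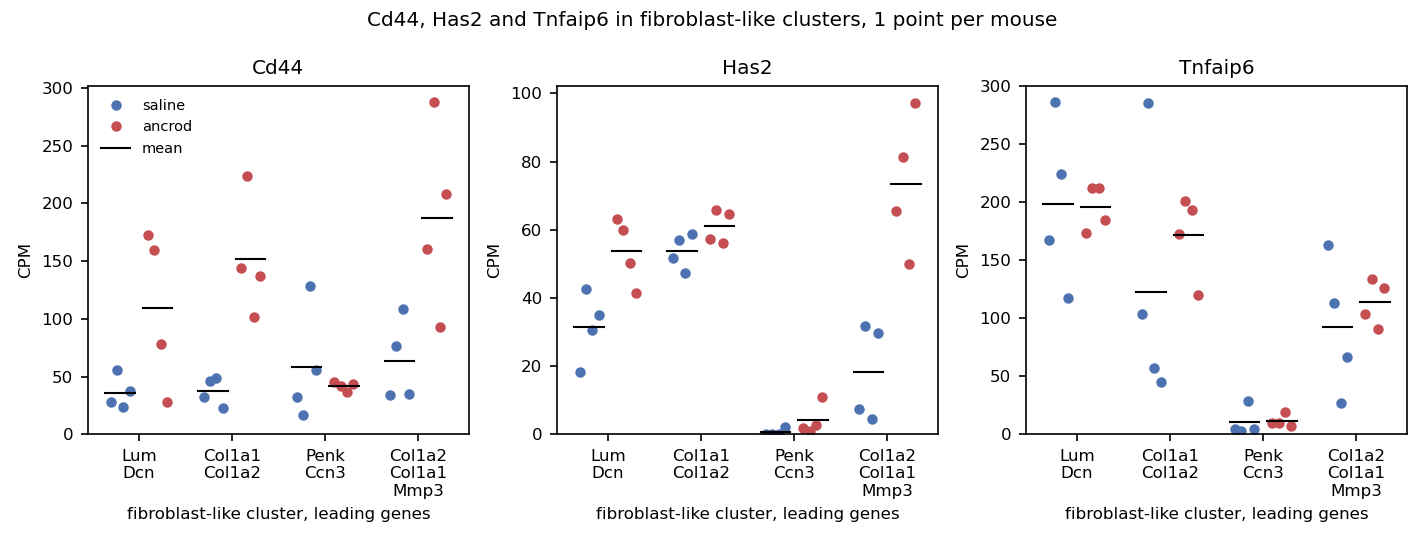
Cd44, Has2 and Tnfaip6 in CPM in 4 clusters of fibroblast-like cells, named by leading genes, 1 point per mouse, with a bar at the mean of each treatment. Has2 and Tnfaip6 were low in the cluster led by Penk and Ccn3, and Cd44 separated by treatment without overlap in the cluster led by Col1a1 and Col1a2.

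In 683 cells led by the collagen genes Col1a1, Col1a2 and Col3a1, Cd44 was between 22.5 and 48.7 CPM in saline mice and between 101 and 224 CPM in ancrod mice, pooled to 36.6 and 134 CPM over the cells of each treatment. In 277 cells led by Col1a2, Col1a1 and Mmp3 together with genes of dividing cells such as Ube2c and Birc5, the ranges were 34.5 to 108 and 93.1 to 288 CPM, the saline maximum coming from the 3 cells of saline mouse 3. In 874 cells led by Lum, Dcn and Apod, which mark matrix-rich fibroblasts, ancrod mouse 4 at 28.1 CPM lay within the saline range of 23.6 to 55.5 CPM, while the other ancrod mice were at 173, 160 and 78.1 CPM. In 363 cells led by Penk, Ccn3 and Slc4a10, the ancrod mice lay between 36.5 and 45.5 CPM, inside the saline range of 16.4 to 128 CPM, whose upper end came from 7 cells of saline mouse 3.

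Has2 had pooled levels of 45, 59.1 and 69.8 CPM in the clusters led by Lum, by Col1a1 and by the dividing cell genes, against 3.67 CPM in that led by Penk. In saline mice alone the first levels were 31.29, 55.25 and 23.38 CPM, so the dividing cluster was highest in ancrod mice only. In the dividing cluster Has2 was between 4.51 and 31.8 CPM in saline mice and between 49.8 and 97.3 CPM in ancrod mice, and in the cluster led by Col1a1 between 47.3 and 58.9 and between 56.3 and 65.8 CPM. Tnfaip6 followed the same division, at 190, 160 and 112 CPM against 11 CPM. Hyal2 did not, with pooled levels between 14.3 and 18.7 CPM in all 4. The Penk cluster held 82 cells of saline mice, 51 of them from saline mouse 4, and 281 cells of ancrod mice. The dividing cluster held 55 and 222, the Lum cluster 334 and 540, and the Col1a1 cluster 195 and 488. The pooled fibroblast-like values thus combined the clusters in unequal proportions, whose part in those values was not tested.

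Outside the fibroblast-like cells, ancrod and saline mice were compared in 13 classes and in all other cells together. None of the 42 tests of the 7 members passed an adjusted p of 0.05 in edgeR, beside 0.0195% of all genes tested in these fits. An unadjusted p below 0.05 was reached in 8 of the 42, beside 6.62% of all genes, and DESeq2 called 2 of 42, beside 0.47%. Both DESeq2 calls were Cd44, in border-associated macrophage-like and in pericyte-like cells. The median log2 fold change over the 42 tests was 0.15, against -0.00 over all genes tested. The 8 tests with an unadjusted p below 0.05 included Cd44 in border-associated macrophage-like, pericyte-like, smooth muscle cell-like and endothelial cell-like cells. Cd44 was picked for its rise in fibroblasts and tested in every class, and the fit of all other cells counts the same cells again. The counts and the median are therefore not read as a result about the 7 members.

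**Figure D5:**
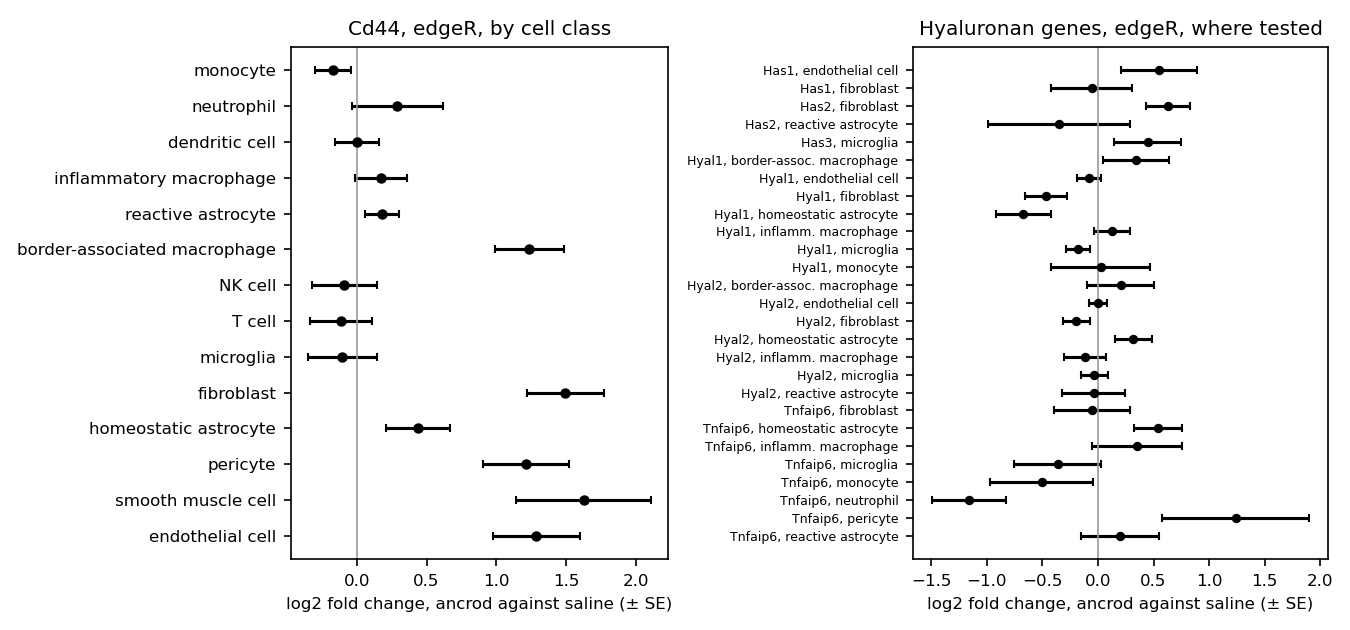
Log2 fold changes of ancrod against saline mice with their standard errors from edgeR, for Cd44 in 14 classes (left, in the order of the Cd44 level) and for the other members in the classes where they passed the filter on low counts (right). Cd44 lay between 1.21 and 1.63 in border-associated macrophage-like, fibroblast-like, pericyte-like, smooth muscle cell-like and endothelial cell-like cells, and between -0.17 and 0.44 in the other 9 classes.

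Cd44 in border-associated macrophage-like cells, the macrophages of the perivascular space and meninges, was 110, 126, 258 and 188 CPM in saline mice 1 to 4 and 408, 383, 558 and 294 CPM in ancrod mice 1 to 4. Every ancrod mouse was above every saline mouse, which was so for 2.25% of the genes tested in this class. The means were 171 ± 67.5 and 411 ± 110 CPM (SD, n = 4 each), the log2 fold change being 1.24 (standard error 0.25). The adjusted p was 0.262 in edgeR and 0.0018 in DESeq2, and 0.00645 in edgeR with no filter on low counts. The call thus depends on the tool and on the filter. Without saline mouse 3, the highest saline mouse, the edgeR fit gave a log2 fold change of 1.5 and an adjusted p of 0.0484. Cd44 passed there in 3 of the 19 alternatives, and in no other fit without 1 mouse.

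These cells formed 2 clusters of unequal depth, which were not compared by a test. In 660 cells with a median of 22704 UMIs the ranges were 115 to 271 CPM in saline and 303 to 578 CPM in ancrod mice, and in 180 cells with a median of 2907 UMIs they overlapped, from 0 to 61.7 and from 26.1 to 47.6 CPM. The 6 border-associated macrophage markers summed to 6501 to 7707 CPM in saline and 6101 to 7921 CPM in ancrod mice. The 6 monocyte markers summed to 16 to 169 CPM in saline and 18.2 to 70.1 CPM in ancrod mice, 2 of 6 being higher in the ancrod mean. The 6 inflammatory macrophage markers summed to 10835 to 12489 and 9925 to 13256 CPM, with 4 of 6 higher in the ancrod mean, of which Arg1 alone did not overlap, with at most 7.99 CPM in saline and at least 19.4 CPM in ancrod mice. Of the 6 neutrophil markers, Ly6g was at 0 in all mice, S100a9 did not overlap (at most 2.18 against at least 2.42 CPM), and the sums were 96.8 to 115 and 95.7 to 134 CPM. Their part in the result was not tested. Within batches, the Cd44 means were 165 and 450 CPM in batch 1 (n = 3 each) and 188 and 294 CPM in batch 2 (n = 1 each).

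In pericyte-like cells, which wrap capillaries, Cd44 was 36.9, 8.51, 17.4 and 15.1 CPM in saline mice 1 to 4 and 57.9, 43.1, 45.5 and 33.3 CPM in ancrod mice 1 to 4. Saline mouse 1 overlapped with ancrod mouse 4. The adjusted p was 0.108 in edgeR and 0.0329 in DESeq2, at a log2 fold change of 1.21 with a standard error of 0.31. Without saline mouse 1, the highest saline mouse, the fold change on that scale was 1.79, with an adjusted p of 0.0336 in edgeR. Cd44 passed there in 5 of the 18 alternatives that gave a value, and in no other fit without 1 mouse. The values rest on 273 UMIs in 1214 cells and lie below the empty droplets in every mouse. The leukocyte markers summed to 179 to 316 CPM in saline and 153 to 387 CPM in ancrod mice, 1 of 6 being higher in the ancrod mean. The 7 fibroblast markers summed to 701 to 942 CPM in saline and 973 to 1336 CPM in ancrod mice, with 5 of 7 higher in the ancrod mean, Col1a2 without overlap and Dpt at 0. Their part in the result was not tested.

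In smooth muscle cell-like cells Cd44 was 3.69, 22.2, 26.2 and 0 CPM in saline mice 1 to 4 and 55.9, 32.7, 61.8 and 37 CPM in ancrod mice 1 to 4. The treatments did not overlap, as for 1.1% of the genes tested there. Cd44 passed the filter on low counts in this class only through the ancrod mice, where it was higher. Its direction and the lack of overlap are thus a description from which no difference is read. On 91 UMIs in 216 cells, edgeR gave 1.63 as the log2 fold change with a standard error of 0.48, and the adjusted p was 0.899 in edgeR and 1.00 in DESeq2. The leukocyte markers summed to 92.5 to 364 CPM in saline and 67.2 to 2568 CPM in ancrod mice, the highest value being ancrod mouse 2 with 2068 CPM of Lyz2 alone, and 5 of 6 were higher in the ancrod mean. The fibroblast markers summed to 390 to 982 CPM in saline and 372 to 928 CPM in ancrod mice, 2 of 7 being higher in the ancrod mean. Their part in the result was not tested.

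In endothelial cell-like cells Cd44 was 1.32, 1.51, 2.46 and 1.28 CPM in saline mice 1 to 4 and 4.46, 2.96, 2.87 and 5.82 CPM in ancrod mice 1 to 4. The treatments did not overlap, as for 2.49% of the genes tested there, and the adjusted p was 0.50 in edgeR and 0.112 in DESeq2 for a log2 fold change of 1.29 with a standard error of 0.31. The level stood on 290 UMIs in 5779 cells and was below the empty droplets in every mouse. After thinning to 2000 UMIs the share of cells with a Cd44 UMI was 0.256% ± 0.111 in saline and 0.334% ± 0.195 in ancrod mice (SD, n = 4 each), with overlap. The leukocyte markers summed to 88.5 to 169 CPM in saline and 82.8 to 192 CPM in ancrod mice, 4 of 6 being higher in the ancrod mean. The 7 fibroblast markers summed to 10.4 to 31 CPM in saline and 12.3 to 161 CPM in ancrod mice, with 6 of 7 higher in the ancrod mean, Dcn without overlap and Dpt at 0. Their part in the result was not tested.

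In monocyte-like cells the saline mice ranged from 1197 to 1810 CPM and the ancrod mice from 1129 to 1502 CPM (edgeR adjusted p = 0.812, with -0.17 as the log2 fold change and 0.13 as its standard error). Inflammatory macrophage-like cells had means of 373 ± 106 and 429 ± 60.5 CPM (SD, n = 4 each), and microglia-like cells of 82.7 ± 29.8 and 75.5 ± 12.3 CPM (SD, n = 4 each). The sign of the Cd44 difference was the same in both batches in 7 of the 14 classes and turned between batches in the other 7, which include monocyte-like, microglia-like and reactive astrocyte-like cells, batch 2 being 1 mouse against 1. Reactive astrocyte-like cells had means of 242 ± 20.9 and 273 ± 47.3 CPM (SD, n = 4 each). In all cells other than fibroblast-like cells together, Cd44 was 149 ± 59.7 CPM in saline and 196 ± 63.5 CPM in ancrod mice (SD, n = 4 each, log2 fold change 0.37, standard error 0.35), with overlap.

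Whether the Cd44 difference itself differed between classes was tested on within-mouse differences of log2(CPM + 1), by an exact permutation of the treatments over 70 arrangements for each of the 78 pairs of the 13 classes. The smallest possible p of 0.0286 was reached by 16 pairs, 7 of which set border-associated macrophage-like cells against another class. The lowest adjusted exact p was 0.139. With 78 pairs the adjusted p can pass only where far more than 16 pairs reach the smallest p, so the test had little means to show a larger effect in 1 class than in another at this number of mice, and none was shown.

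Among the other members, Tnfaip6 in neutrophil-like cells was 44, 66.2, 69.5 and 41.7 CPM in saline mice 1 to 4 and 26.2, 28.4, 18.8 and 38.3 CPM in ancrod mice 1 to 4. The treatments did not overlap, as for 1.2% of the genes tested there in this direction. Tnfaip6 passed the filter on low counts in this class through the saline mice, where it was higher. Its direction and the lack of overlap are thus a description from which no difference is read. The adjusted p in edgeR was 0.925 for a log2 fold change of -1.16 with a standard error of 0.34, on 151 UMIs in all, of which saline mouse 1 gave 2 and ancrod mouse 4 gave 4. Batch 1 held the larger part of the difference, with means of 59.9 and 24.5 CPM (n = 3 each) against 41.7 and 38.3 CPM in batch 2 (n = 1 each). In homeostatic astrocyte-like cells Tnfaip6 was between 16.1 and 24.8 CPM in saline and between 18.6 and 37.9 CPM in ancrod mice (0.54 on the log2 scale with a standard error of 0.22, edgeR adjusted p = 0.564). In all cells other than fibroblast-like cells together, Tnfaip6 was 5.87, 6.42, 2.81 and 6.94 CPM in saline mice 1 to 4 and 9.32, 8, 8.08 and 6.96 CPM in ancrod mice 1 to 4. The ancrod mice were all above the saline mice, the nearest being saline mouse 4 and ancrod mouse 4, as for 2.9% of the genes tested there, and all 8 lay below their empty droplets. The edgeR adjusted p was 0.484 for a log2 fold change of 0.55 with a standard error of 0.25. Tnfaip6 in the empty droplets was 7.93 ± 3.05 CPM in saline and 16.1 ± 5 CPM in ancrod mice (SD, n = 4 each). The part of free RNA in this and in the homeostatic astrocyte-like values was not tested. The sum over all other cells, also used for Cd44 and Hyal1, joins classes recovered in unequal numbers. Endothelial cell-like cells, at 0.358 CPM of Tnfaip6, numbered 857 to 1057 per saline mouse and 339 to 668 per ancrod mouse. The part of these numbers in the summed values was not tested.

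Hyal1 in homeostatic astrocyte-like cells was 7.1, 6.64, 3.9 and 9.12 CPM in saline mice 1 to 4 and 3.02, 4.74, 4.62 and 4.54 CPM in ancrod mice 1 to 4. Saline mouse 3 lay within the ancrod range, and the adjusted p in edgeR was 0.555 for a log2 fold change of -0.67 with a standard error of 0.25. Over all cells other than fibroblast-like cells, Hyal1 was 6.84 ± 0.637 and 6.02 ± 0.272 CPM (SD, n = 4 each, edgeR adjusted p = 0.453). Hyal2 in endothelial cell-like cells, its main site, was 39.7 ± 3.1 CPM in saline and 39.7 ± 2.62 CPM in ancrod mice (SD, n = 4 each), with a log2 fold change of 0.00 and a standard error of 0.08.

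The synthases could be tested in few classes outside the fibroblast-like cells. Has2 passed the filter on low counts in reactive astrocyte-like cells, where the means were 17.3 ± 16.9 and 13 ± 12 CPM (SD, n = 4 each). The direction turned between batches there, with 9.76 against 16.7 CPM in batch 1 (n = 3 each) and 40 against 1.99 CPM in batch 2 (n = 1 each), in the order saline and ancrod. Has1 passed it in endothelial cell-like cells, at 1.86 ± 0.984 and 2.79 ± 0.472 CPM (SD, n = 4 each). Has3 passed it in microglia-like cells alone among the classes, at 0.423 ± 0.127 and 0.559 ± 0.111 CPM (SD, n = 4 each), and none of these had an adjusted p below 0.05 in edgeR.

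The other 47 genes of a list of the hyaluronan and CD44 pathway, which holds receptors, precursor enzymes, hyaluronan-binding proteoglycans, partners of CD44 in the cytoskeleton, proteases that shed it and its other ligands, gave 370 tests outside the fibroblast-like cells. Of these, 1 passed in edgeR (0.0195% of all genes did), 40 had an unadjusted p below 0.05 (6.62% of all genes), 6 passed in DESeq2 (0.47% of all genes), and the median log2 fold change was 0.06. Of the 26 edgeR calls over all genes in these fits, 25 were in pericyte-like cells, where 9056 genes were tested. The gene of the list that passed in edgeR was Fn1 in these pericyte-like cells, which codes for fibronectin, a matrix protein that CD44 can bind. It rose from 119 ± 16.6 CPM in saline to 260 ± 82.8 CPM in ancrod mice (SD, n = 4 each), with ranges of 104 to 143 and 173 to 368 CPM and an edgeR adjusted p of 0.0139 at 1.19 on the log2 scale (standard error 0.19). The call was lost without saline mouse 2 (1.29 on the log2 scale, edgeR adjusted p = 0.0611) or without ancrod mouse 2 (1.17, edgeR adjusted p = 0.0582). Of the 7 fibroblast markers, 5 were higher in the ancrod mean of these pericyte-like cells, with the sums given above. Fn1 lay at 2635 CPM in fibroblast-like cells. The part of fibroblast RNA in the Fn1 result was not tested.

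In fibroblast-like cells, 38 of the 47 genes passed the filter on low counts, 0 passed an adjusted p of 0.05 in edgeR (0.0078% of all genes did) and 3 in DESeq2 (1.23% of all genes), and these counts carry no test since Cd44 was picked in the same contrast. In each functional group the gene with the highest level there was taken as the example. Spp1 (osteopontin, another CD44 ligand) had means of 3963 ± 1041 CPM in saline and 2987 ± 837 CPM in ancrod mice, and Mmp14, a membrane protease that cleaves CD44, of 790 ± 151 and 631 ± 53.9 CPM (SD, n = 4 each). The hyaluronan-binding proteoglycan gene Vcan lay at 365 ± 48.6 and 300 ± 52 CPM, and Itih5, a heavy chain gene, at 383 ± 72.9 and 234 ± 58.6 CPM (SD, n = 4 each). Cemip, whose product degrades hyaluronan, had means of 209 ± 40.3 and 146 ± 52.2 CPM, Iqgap1, a scaffold protein that binds CD44, of 206 ± 22.4 and 245 ± 16.5 CPM, and Gfpt1, which supplies amino sugar for the polymer, of 72.3 ± 5.81 and 82.8 ± 7.18 CPM (SD, n = 4 each). Among the receptors and synthases the highest were the members Cd44 and Has2.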

How the data were processed

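Single-cell RNA sequencing libraries (10x Genomics 3′ v3.1) of 8 mice were analysed. The authors aligned the reads to GRCm39 (mm39 in the submitters' processing notes, which name Cell Ranger 7.1.0 and STAR) and deposited raw UMI counts for each gene in every droplet, empty droplets included, without normalization. The members and gene lists were chosen with earlier results of these data known.

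Doublets were scored in each library with a Scrublet procedure and removed in a number that grew with the cells recovered. Clustering (leidenalg 0.10.2, resolution 2) used 3000 variable genes without the 54 pathway genes, 30 principal components and 20 neighbours. Clusters were named by the highest marker score and left unnamed where markers of some other class outnumbered their own among the 10 leading genes, where UMIs were low and none of the leading genes was a marker, or where a class of another lineage also scored high. UMIs were summed per mouse and class and tested with edgeR 4.0.16 (filterByExpr, TMM, glmQLFTest, Benjamini-Hochberg over all genes of a class). DESeq2 1.42.0 was an alternative. The edgeR step was tested on simulated data. P-values measure the spread between mice, and shares and limits of 0 (3 counts) cover counting error only. Other alternatives were size factors, no count filter, batch, a replicate block, batch 1 alone, single mice left out, doublets kept, resolution 1, at least 5000 UMIs, less than 10% mitochondrial UMIs and thinning to 2000 UMIs.

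Named in the text were the 7 members in every class, other pathway genes that passed in edgeR or had the highest level of their functional group in fibroblast-like cells, and the 5 genes most like Cd44. Arg1, S100a9, Lyz2, Col1a2, Col3a1, Dcn, Dpt and Ly6g were named after their values had been seen.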

Additional observations from a re-analysis of the deposited data

Results flagged for a closer look

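A mouse that stood apart from the other 3 mice of its treatment (Dixon's test at 95% on a group of 4, which chance passes in about 1 in 20 groups) was found in 11 of the 82 groups examined, where chance would give about 4.1. The 4.1 holds for normally distributed values, whereas some values rest on few UMIs, so the 11 is not read as an excess. For Cd44, ancrod mouse 4 lay at 119.5 CPM in T cell-like cells against 203 to 218 CPM in the others, and ancrod mouse 1 at 92.74 CPM in homeostatic astrocyte-like cells against 48.5 to 51.8 CPM. Both were groups in which the treatments overlapped.

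For Hyal1, saline mouse 1 lay at 10.94 CPM in endothelial cell-like cells against 8.77 to 8.99 CPM, saline mouse 3 at 2.857 CPM in fibroblast-like cells against 4.58 to 4.83 CPM, and ancrod mouse 1 at 3.021 CPM in homeostatic astrocyte-like cells against 4.54 to 4.74 CPM. In inflammatory macrophage-like cells saline mouse 2 held 6.241 CPM of Hyal1 against 4.85 to 5 CPM. Hyal2 in border-associated macrophage-like cells was at 4.275 CPM in saline mouse 1 against 14.4 to 16.4 CPM. That Hyal2 value rests on 4 UMIs, and the Hyal1 value of saline mouse 3 on 5 UMIs in 34 fibroblast-like cells.

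For Tnfaip6, saline mouse 4 lay at 1.322 CPM in microglia-like cells against 0.418 to 0.50 CPM, and at 23.26 CPM in monocyte-like cells against 8.75 to 10.9 CPM. In pericyte-like cells saline mouse 3 held 26.15 CPM, from 24 UMIs in 5 cells, against 0.784 to 3.03 CPM. In reactive astrocyte-like cells saline mouse 2 held 156 CPM against 41.1 to 57.7 CPM, and the same mouse had the highest Tnfaip6 in fibroblast-like cells.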

How the results depend on the processing

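The Cd44 log2 fold change in fibroblast-like cells kept its sign and stayed within the spread between mice under all 19 alternatives, between 1.34 and 1.68, which is also its range without 1 mouse. Cd44 was picked on this value, so its stability and the fibroblast-like count below are descriptions that support nothing. The count of members passing outside fibroblast-like cells moved from 0 to 2 with DESeq2 and with no count filter (Cd44 in border-associated macrophage-like and pericyte-like cells), and to 1 with the replicate block and with doublets kept (Cd44 in pericyte-like cells). Without 1 mouse it lay between 0 and 2, the 2 arising without saline mouse 3 (Cd44 in border-associated macrophage-like, Tnfaip6 in pericyte-like cells, whose log2 fold change went from 1.24 to 3.37). In saline mice 1, 2 and 4 the pericyte-like cells held 1, 1 and 3 Tnfaip6 UMIs. The gene passed the count filter there through the ancrod mice, where it was higher, so nothing is read from this call. In fibroblast-like cells the count moved from 0 to 1 (Cd44) with DESeq2 and, among the fits without 1 mouse (0 to 1), without ancrod mouse 3. The pathway count moved from 1 to 6 with DESeq2 and 4 with no filter, and lay between 0 and 1 without 1 mouse. The number of neighbouring classes that differed in Cd44 was 6 at resolution 1, and fell from 5 to 3 with doublets kept and 0 with at least 5000 UMIs, and was 0 without any 1 mouse. The pairs above empty droplets were 21, 19 or 16. The cause of these moves was not tested.

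The replicate block used the replicate numbers of the labels. In microglia-like cells same-numbered mice correlated at -0.224, -0.023, -0.043 and 0.081, so the numbers do not pair the mice, and the block changed no other member's call. Over the alternatives the adjusted p of Cd44 lay between 0.0018 and 0.656 in border-associated macrophage-like and between 0.00446 and 0.298 in pericyte-like cells. The direction held under every alternative that gave a value for Cd44 in border-associated macrophage-like, pericyte-like, endothelial cell-like and smooth muscle cell-like cells, Tnfaip6 in neutrophil-like and homeostatic astrocyte-like cells, Hyal1 in homeostatic astrocyte-like cells and Fn1 in pericyte-like cells. Cd44 in smooth muscle cell-like and Tnfaip6 in neutrophil-like cells passed the count filter through the treatment with the higher level, so their direction is only described. Levels of a few UMIs per mouse or fewer, as for Has2 in leukocytes and Has3 in most classes, were not resolved at this depth.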
